A study of Mus musculus with 29 samples.

Results

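The Ifit cluster of mouse chromosome 19 was described from all peaks and all chromatin state segments that overlap chr19:34600000-34740000 (mm9), a region of 140 kb chosen by position and not by any measured value. Of 1199111 peaks in 26 deposited lists, 212 overlapped it, and of 2070063 segments in 4 segmentations, 351 did. The positions given for the genes, called anchors here, were 34625000 for Ifit2, 34658000 for Ifit3 and 34715000 for Ifit1. They are approximate and are not start sites. No mm9 annotation was used, so distances are measured from these anchors, and marks elsewhere in the region were not assigned to a gene. In the RefSeq gene order the cluster holds 6 Ifit genes, Ifit2, Ifit3, Ifit1bl1, Ifit3b, Ifit1bl2 and Ifit1, between Lipa and Slc16a12.

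The libraries came from RAW264.7, a macrophage-like mouse cell line that arose through transformation with Abelson leukaemia virus, and were made by chromatin immunoprecipitation and sequencing (ChIP-seq). Cells were untreated or were given LPS at 100 ng/ml for 1 h or 4 h, and further cells had 1 h of flavopiridol, either alone or before the 4 h of LPS. H3K4me3, H3K27ac, H3K4me1, H3K79me2, H3K36me3, H3K36me2 and H3K27me3 were profiled in untreated and LPS-treated cells, H3K4me1 and H3K36me2 also with flavopiridol, and PU.1 in untreated cells only. There was 1 library per mark and condition, so no spread between cultures can be measured, every difference is between single libraries, and no test was made. The number of reads behind each list is unknown, and a lower coverage cannot be told apart from weaker detection in that library. The cell type was not checked against marker genes, because the lists name no genes.

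IFIT proteins are antiviral proteins built of tetratricopeptide repeats. IFIT1 binds RNA that lacks the cap methylation of the host, and the family is among the proteins most strongly induced by interferon. In macrophages, lipopolysaccharide (LPS), a bacterial cell wall component, acts through Toll-like receptor 4 and leads to type I interferon, which acts back on the cells through the factor ISGF3. ISGF3 and related interferon regulatory factors bind the interferon-stimulated response element (ISRE), found upstream of many antiviral genes. PU.1 is the transcription factor that defines the myeloid lineage, and flavopiridol inhibits CDK9, the kinase that releases RNA polymerase II into elongation.

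The RefSeq promoters of the cluster are shown for the 3 genes that name the region and for Ifit3b, because they differ in the ISRE core. The core was searched as GAAANNGAA on both strands, which reads TTCNNTTTC on the opposite strand, and capitals mark each match. Each sequence runs 5′ to 3′ on the gene's strand, from 250 bases before to 50 bases after the start site, in GRCm38.p6. All 4 genes lie on the plus strand, at chr19:34550444-34550743 for the first Ifit2 start, chr19:34583279-34583578 for Ifit3, chr19:34607707-34608006 for Ifit3b and chr19:34640639-34640938 for Ifit1. These positions belong to GRCm38.p6 and do not line up with the mm9 positions of the peaks.
Ifit2: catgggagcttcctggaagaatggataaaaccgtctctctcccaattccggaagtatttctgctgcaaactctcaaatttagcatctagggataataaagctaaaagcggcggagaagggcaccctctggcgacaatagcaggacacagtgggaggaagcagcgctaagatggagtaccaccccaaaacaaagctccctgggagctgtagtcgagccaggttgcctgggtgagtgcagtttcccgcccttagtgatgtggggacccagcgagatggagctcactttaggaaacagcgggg
Ifit3: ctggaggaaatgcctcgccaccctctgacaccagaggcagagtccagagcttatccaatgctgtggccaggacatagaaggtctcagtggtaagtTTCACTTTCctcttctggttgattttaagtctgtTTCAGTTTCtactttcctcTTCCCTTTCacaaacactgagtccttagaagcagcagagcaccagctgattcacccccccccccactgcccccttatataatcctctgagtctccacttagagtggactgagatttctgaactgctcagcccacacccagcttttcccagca
Ifit3b: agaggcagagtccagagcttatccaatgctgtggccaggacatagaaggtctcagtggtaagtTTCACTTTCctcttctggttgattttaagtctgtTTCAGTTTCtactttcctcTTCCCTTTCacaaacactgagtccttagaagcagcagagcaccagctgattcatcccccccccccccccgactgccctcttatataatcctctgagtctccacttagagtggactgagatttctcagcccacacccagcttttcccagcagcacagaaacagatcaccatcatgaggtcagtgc
Ifit1: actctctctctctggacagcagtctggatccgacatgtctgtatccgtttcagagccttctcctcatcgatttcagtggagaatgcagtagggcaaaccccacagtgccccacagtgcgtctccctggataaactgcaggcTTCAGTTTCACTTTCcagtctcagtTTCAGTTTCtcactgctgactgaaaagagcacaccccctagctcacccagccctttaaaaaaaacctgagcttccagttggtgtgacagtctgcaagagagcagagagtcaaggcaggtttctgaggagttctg

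Ifit3 held 3 matches, at 155, 121 and 102 bases before its start. Ifit3b, a neighbouring family member, held the same number at 187, 153 and 134 bases before its own, and the sequences of the pair share an identical run of 169 bases. Ifit1 held 3 matches at 109, 103 and 84 bases before its start, of which the first 2 overlap. The second Ifit1bl2 start faces Ifit1 on the minus strand and shares 245 of its 300 bases with the Ifit1 promoter, so its 3 matches are those of Ifit1. Both Ifit1bl1 starts held 2 matches each. Neither of the 2 Ifit2 starts in the table held one, nor did the first Ifit1bl2 start. The ISRE core was thus found in 6 of 9 Ifit promoters, against 2812 of 32851 promoters in the whole table (8.56%). The PU.1 core GAGGAAGT was found in 3 of the 9, both starts of Ifit1bl1 and the first of Ifit1bl2, against 3.20% of all promoters. The kappa B core GGGANTTTC was in none of the 9, against 1.11% of all. The TATA box TATAAA was in 3 of the 9, again in Ifit1bl1 and the first Ifit1bl2 start, against 13.6% of all. A match is a string of letters and not a measured binding site, and other start sites of these genes were not examined.

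The promoter mark H3K4me3 changed little in coverage after 1 h of LPS and covered several times more of the region after 4 h. It covered 5.96 kb of the region in untreated cells, 6.78 kb at 1 h and 21.4 kb at 4 h, or 4.26%, 4.84% and 15.3% of its length. The share at 4 h was 11.1 percentage points above that of untreated cells. When chromosomes 1 to 19 and X were divided into 18841 tiles of the region's width, no other tile had as large a difference, and 0.0106% of tiles, 2 in number, differed upward by 10 points or more. The tiles of chromosome 19 were placed so that the region was a tile of its own, while other loci could be split by a tile border. That placement favours the region in such a ranking. The mark covered 1.57% of the genome at 4 h and 1.45% in untreated cells.

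**Figure D1:**
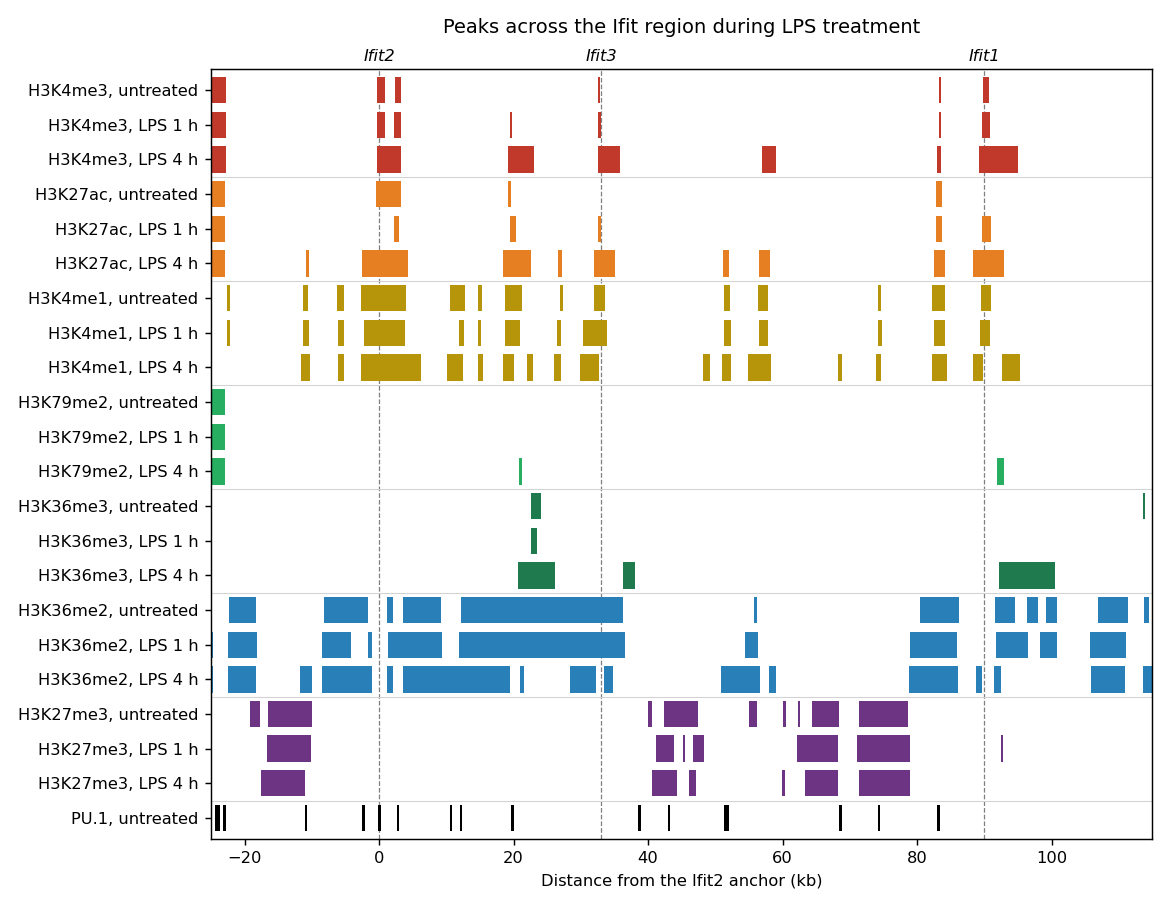
Peaks of each histone mark in untreated cells, at LPS 1 h and at LPS 4 h, and PU.1 peaks of untreated cells, along the 140 kb Ifit region; the x axis is the distance from the Ifit2 anchor in kb, each block is a peak and dashed lines are the 3 anchors. H3K4me3, H3K27ac and H3K36me3 blocks are longer or more numerous at 4 h, while H3K27me3 blocks stay between and beside the anchors.

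The H3K4me3 list had 7 peaks in the region at 4 h, of which 2 were gained, meaning that they share no base with a peak of untreated cells. In the whole 4 h list 9.64% of peaks were gained. At 1 h 1 of 7 was gained, against 5.69% of the whole 1 h list. At the Ifit1 anchor a peak of 987 bp in untreated cells was 1234 bp long at 1 h and 5749 bp at 4 h, when it spanned chr19:34714259-34720007. It was the longest H3K4me3 peak of the region at 4 h, and most of the added length lay downstream of the anchor. At the Ifit3 anchor the peak was 279 bp in untreated cells, 493 bp at 1 h and 3372 bp at 4 h (chr19:34657525-34660896). At the Ifit2 anchor untreated cells already had a pair of peaks, of 1212 and 875 bp. They measured 1140 and 1023 bp at 1 h and were a single peak of 3579 bp at 4 h (chr19:34624713-34628291). All 3 anchors thus carried H3K4me3 before stimulation and longer peaks at 4 h, with Ifit2 starting from the most and Ifit3 from the least.

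The remaining H3K4me3 peaks lay away from the anchors. One at chr19:34644175-34648024, centred 21.1 kb to the right of the Ifit2 anchor, was absent in untreated cells, 333 bp long at 1 h and 3850 bp at 4 h. Another at chr19:34681897-34683991, between the Ifit3 and Ifit1 anchors, was present at 4 h alone among the 3 H3K4me3 lists and was 2095 bp long. Whether either belongs to one of the Ifit genes was not determined, since the positions of Ifit3b, Ifit1bl1, Ifit1bl2 and of the gene ends in mm9 were not used here. A short peak 83.3 kb from the Ifit2 anchor measured 384, 294 and 510 bp in untreated, 1 h and 4 h cells. At the left end of the region a peak that crosses the border was present in all 3 lists and was longest in untreated cells, at 5990 bp, against 3569 bp at 1 h and 3635 bp at 4 h. The border peak was thus shorter at 4 h than in untreated cells and the short peak differed by little, unlike the 5 other sites.

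**Figure D2:**
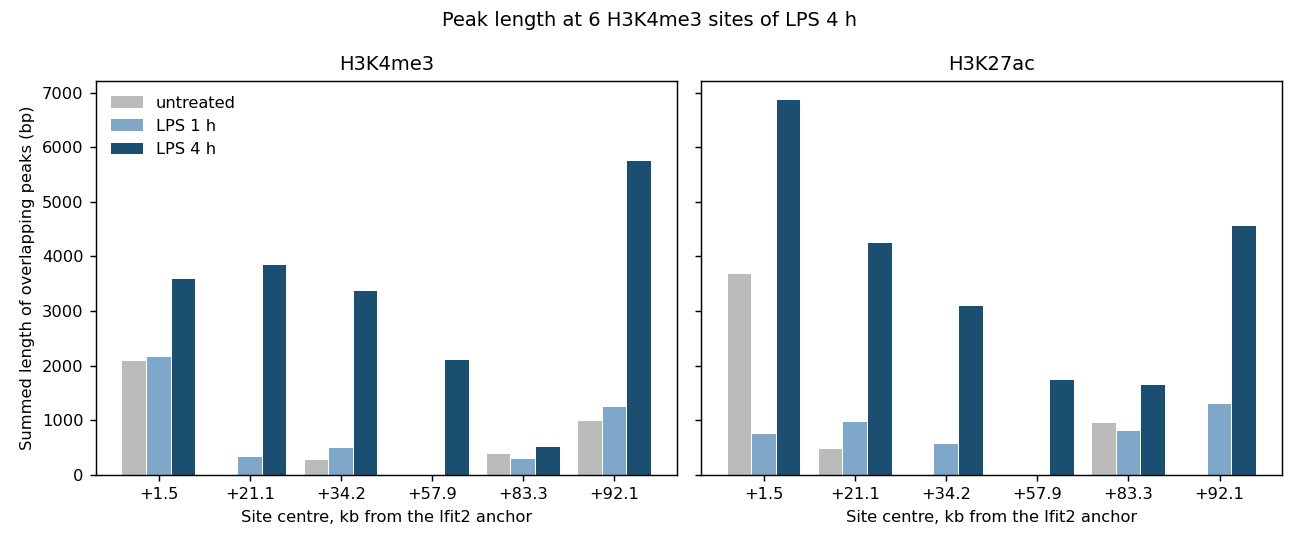
Summed length in bp of the H3K4me3 peaks (left) and H3K27ac peaks (right) that overlap each of 6 H3K4me3 sites of LPS 4 h, by the distance of the site centre from the Ifit2 anchor in kb; bars are single libraries of untreated, LPS 1 h and LPS 4 h cells. The site at the Ifit1 anchor, +92.1 kb, had 987, 1234 and 5749 bp of H3K4me3, and at the Ifit2 anchor, +1.5 kb, H3K27ac had 3674, 746 and 6869 bp.

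H3K27ac, found at active promoters and enhancers, covered 7.24 kb in untreated cells, 6.42 kb at 1 h and 26.1 kb at 4 h, or 5.17%, 4.58% and 18.6% of the region. The 4 h share was 13.5 points above that of untreated cells. Rises of 10 points or more were seen in 1.02% of tiles and falls in 0.218%. A rise at least as large as that of the region was seen in 98 tiles, the Ifit region among them. The region had 10 peaks at 4 h, of which 6 were gained, against 21.3% of the whole list. At 1 h 2 of 6 peaks were gained, against 9.05% of the whole list. Both of these lay at anchors.

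The anchors differed in when acetylation was found. The Ifit1 anchor had no H3K27ac peak in untreated cells, 1 of 1294 bp at 1 h and 1 of 4555 bp at 4 h. The Ifit3 anchor likewise had none in untreated cells, 1 of 557 bp at 1 h and 1 of 3100 bp at 4 h. Near the Ifit2 anchor the order was another: a peak of 3674 bp in untreated cells was 746 bp long at 1 h and 6869 bp at 4 h. The 1 h peak, at chr19:34627296-34628041, did not reach the anchor. Within 2 kb of the anchor H3K27ac covered 2428 bp in untreated cells, 0 bp at 1 h and 4001 bp at 4 h. The 1 h list covered less of the genome too, 2.77% against 3.17% in the untreated list, and the part of that in the Ifit2 value was not tested. At the site 21.1 kb from the Ifit2 anchor H3K27ac peaks measured 467, 968 and 4240 bp in untreated, 1 h and 4 h cells. The 4 h peak between the Ifit3 and Ifit1 anchors, of 1742 bp, overlapped the H3K4me3 peak gained there. Further gained peaks of 405, 529 and 855 bp lay 10.7 kb before the Ifit2 anchor, 6.1 kb before the Ifit3 anchor and 18.6 kb after it.

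H3K4me1, a mark of enhancers and promoter flanks, already covered more of the region than H3K4me3 or H3K27ac before stimulation. It covered 22.7 kb in untreated cells, 22.1 kb at 1 h and 34.8 kb at 4 h, or 16.2%, 15.8% and 24.9%. The 4 h share was 8.65 points above that of untreated cells, under the 10-point rise that 0.292% of tiles reached. A rise at least as large as that of the region was seen in 80 tiles, the Ifit region included. All 14 peaks at 1 h overlapped an untreated peak, where 7.27% of the whole 1 h list was gained. Of 18 peaks at 4 h 4 were gained, against 15.0% of the whole list. The widest of the 4 was 2808 bp long and lay downstream of the Ifit1 anchor (chr19:34717557-34720364), under the far end of the extended H3K4me3 peak.

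H3K4me1 at the Ifit1 anchor was on both sides of the middle of the H3K4me3 peak at 4 h. The 4 h peak nearest the anchor ran from 34713247 to 34714823, so that it overlapped only the start of the H3K4me3 peak, and the gained peak began 2.7 kb further on. At the Ifit3 anchor the H3K4me1 peak shared 1080 bp with the later H3K4me3 span in untreated cells, 1345 bp at 1 h and 115 bp at 4 h. At the Ifit2 anchor H3K4me1 covered the whole H3K4me3 span of 4 h in all 3 conditions. Over the H3K4me3 span at Ifit1 it covered 3016 bp at 4 h, against 1524 bp in untreated cells. Of the 3 anchors, the length shared at 4 h was thus lower than before treatment at Ifit3 alone.

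**Figure D3:**
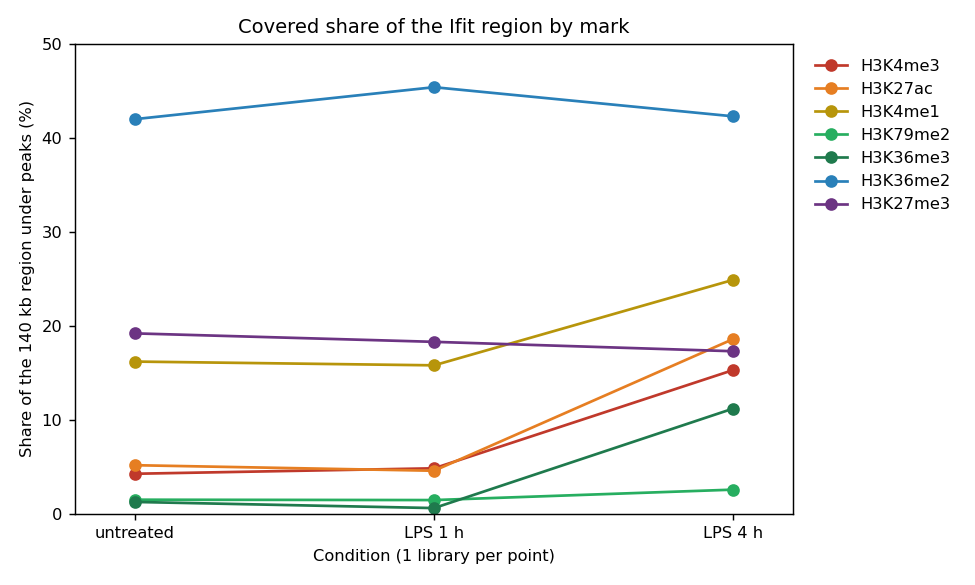
Percentage of the 140 kb Ifit region under peaks of each histone mark in untreated cells, at LPS 1 h and at LPS 4 h, with 1 library per point. H3K4me3, H3K27ac and H3K36me3 stood at 15.3%, 18.6% and 11.2% at 4 h, against 4.26%, 5.17% and 1.26% in untreated cells, while H3K36me2 stayed between 42.0% and 45.4%.

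H3K36me3, deposited along transcribed gene bodies by SETD2, and H3K79me2, which lies over the first part of transcribed genes, were nearly absent inside the region before 4 h. H3K36me3 covered 1.76 kb in untreated cells, 0.851 kb at 1 h and 15.6 kb at 4 h, or 1.26%, 0.608% and 11.2%. The 4 h share was 9.90 points above that of untreated cells, while 0.419% of tiles differed upward by 10 points or more and 0.547% downward. Of 3 peaks at 4 h 2 were gained, against 11.5% of the whole list. One began 2.1 kb after the Ifit1 anchor and was 8362 bp long (chr19:34717144-34725505). Another of 1817 bp began 3.3 kb after the Ifit3 anchor (chr19:34661303-34663119). The third, of 5446 bp (chr19:34645710-34651155), overlapped the H3K4me3 site 21.1 kb from the Ifit2 anchor, and untreated and 1 h cells had peaks of 1462 and 851 bp within it. No H3K36me3 peak lay within 5 kb of the Ifit2 anchor in any list.

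H3K79me2 covered 2.10, 2.04 and 3.59 kb in untreated, 1 h and 4 h cells, and in the first 2 conditions all of it was the end of a domain that crosses the left border. The 4 h share was 1.07 points above that of untreated cells, and 0.186% of tiles differed upward by 10 points or more. At 4 h 2 of 3 peaks were gained, against 19.3% of the whole list. They measured 1140 bp at chr19:34716837-34717976, after the Ifit1 anchor, and 418 bp at chr19:34645768-34646185. Each lay across or just inside the left end of an H3K36me3 peak and under an H3K4me3 peak. The Ifit3 and Ifit2 anchors had no H3K79me2 peak within 5 kb in any of the 3 lists.

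H3K36me2, a mark of broad domains within and between genes, covered almost as much at 4 h as in untreated cells. It covered 58.9 kb in untreated cells, 63.5 kb at 1 h and 59.2 kb at 4 h, or 42.0%, 45.4% and 42.3% of the region, where the genome stood at 10.7%, 12.1% and 13.2%. The difference between 4 h and untreated cells was 0.259 points, while 8.82% of tiles differed upward by 10 points or more. Of 16 peaks at 4 h 4 were gained, against 25.2% of the whole list. The 4 h and untreated lists shared 42.3 kb, or 71.4% of what was covered at 4 h. In untreated cells a single block of 24059 bp ran across chr19:34637184-34661242 and over the Ifit3 anchor. At 1 h the block measured 24681 bp. At 4 h its place held the right part of a peak of 15905 bp and pieces of 650, 3890 and 1348 bp. The peak of 15905 bp ran from 34628577 to 34644481, so much of it lay to the left of the untreated block.

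H3K36me2 was lower at 4 h over 2 of the 3 H3K36me3 peaks, and also over a H3K4me3 peak that H3K36me3 did not cover. Of the 16.6 kb with H3K36me2 in untreated cells and not at 4 h, 9.75 kb lay under H3K36me3 peaks of 4 h and 6.95 kb under H3K4me3 peaks of 4 h, and some lay under both. The H3K4me3 peak over the Ifit3 anchor was covered by H3K36me2 to 40.0% at 4 h, against 100% in untreated cells. Over the 3 H3K36me3 spans, 15625 bp in all, H3K36me2 covered 68.9% before treatment, 78.2% at 1 h and 6.54% at 4 h. The span of 5446 bp was covered to 100% before treatment and at 1 h and to 11.9% at 4 h, and the span after the Ifit1 anchor to 63.6%, 77.3% and 4.45%. The short span after the Ifit3 anchor had 0%, 17.3% and 0%. Over the 3319 H3K36me3 peaks gained at 4 h in the genome, H3K36me2 covered 72.6%, 76.9% and 77.9% in the same 3 conditions. Of the 28970 H3K36me3 peaks of 4 h, 15462 were covered by H3K36me2 to at least 50% in untreated cells, and 168 of these had a share lower by 50 points or more at 4 h (1.09%). In the region both of the 2 such peaks did. Over all 28970 peaks H3K36me2 covered 31.0% before treatment, 37.7% at 1 h and 42.7% at 4 h. H3K36me2 was thus lower at 4 h than in untreated cells over the summed length of the 3 spans in the region and higher over both sets in the genome. That difference was not tested, because each value is from 1 library. None of the 12 untreated H3K36me2 peaks of the region, and 1 of the 16 at 4 h, had a deposited −log10 q of 5 or more.

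H3K27me3, the mark of Polycomb repression, covered 26.9 kb in untreated cells, 25.6 kb at 1 h and 24.2 kb at 4 h, or 19.2%, 18.3% and 17.3%. The difference between 4 h and untreated cells was -1.91 points, and 0.0372% of tiles differed downward by 10 points or more and 7.57% upward. The mark covered 16.1% of the genome at 4 h and 13.7% in untreated cells, so the region and the whole list differed in opposite directions. None of the 6 peaks at 4 h was gained, against 28.2% of the whole list, and 3 of the 9 untreated peaks had no 4 h counterpart, against 9.43% of the whole untreated list. The blocks lay to the left of the Ifit2 anchor and between the Ifit3 and Ifit1 anchors. The widest 4 h blocks measured 7653 bp at chr19:34696302-34703954 and 6513 bp at chr19:34607411-34613923. Within 5 kb of an anchor H3K27me3 was found once, as a peak of 337 bp at Ifit1 at 1 h.

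Flavopiridol was used with H3K4me1 and H3K36me2, and both marks covered less of the region in cells given the drug. After flavopiridol and LPS, H3K4me1 covered 8.99 kb in 8 peaks, against 34.8 kb in 18 peaks with LPS alone. The share of the region was 6.42%, against 24.9%, a difference of -18.4 points, and 11.6% of tiles differed downward by 10 points or more. Flavopiridol alone left 12.2 kb in 9 peaks, against 22.7 kb in 14 peaks in untreated cells. That was a difference of -7.54 points, and 6.22% of tiles differed downward by 10 points or more. Of the 14 untreated peaks 6 had no counterpart with flavopiridol alone, against 20.9% of the whole untreated list. The flavopiridol list covered 5.45% of the genome, against 7.28% in untreated cells. The flavopiridol and LPS list covered 4.44% of the genome, against 7.59% with LPS alone, so the whole list was lower and not the Ifit region alone. Peaks with a deposited −log10 q of 5 or more were 1 of 8 after flavopiridol and LPS, against 13 of 18 with LPS alone. They were 1 of 9 with flavopiridol alone, against 5 of 14 in untreated cells. The part of list-wide detection in either difference was not tested.

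Of the 18 H3K4me1 peaks of LPS 4 h, 10 had no counterpart after flavopiridol and LPS, against 33.9% of that whole list. None of the 4 peaks gained with LPS overlapped one, whereas 25.1% of the 11004 gained peaks of the genome did. Of the 14 peaks shared with untreated cells 8 overlapped one, against 73.4% in the genome. Within 5 kb of the Ifit3 anchor no H3K4me1 peak was called with flavopiridol, with or without LPS. Untreated cells had a peak of 1592 bp over that anchor, and LPS alone had one of 2720 bp that ended 0.4 kb before it. At the Ifit1 anchor a peak of 1073 bp lay over the anchor after flavopiridol and LPS. The nearest peak with LPS alone measured 1577 bp and ended 0.2 kb before the anchor, so these lengths are of mostly different stretches. The peak over the anchor was 2008 bp long with flavopiridol alone, against 1524 bp in untreated cells. At the Ifit2 anchor H3K4me1 covered 42.6% of the 10 kb window after flavopiridol and LPS, against 76.3% with LPS alone, and 40.7% with flavopiridol alone, against 66.8% in untreated cells.

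**Figure D4:**
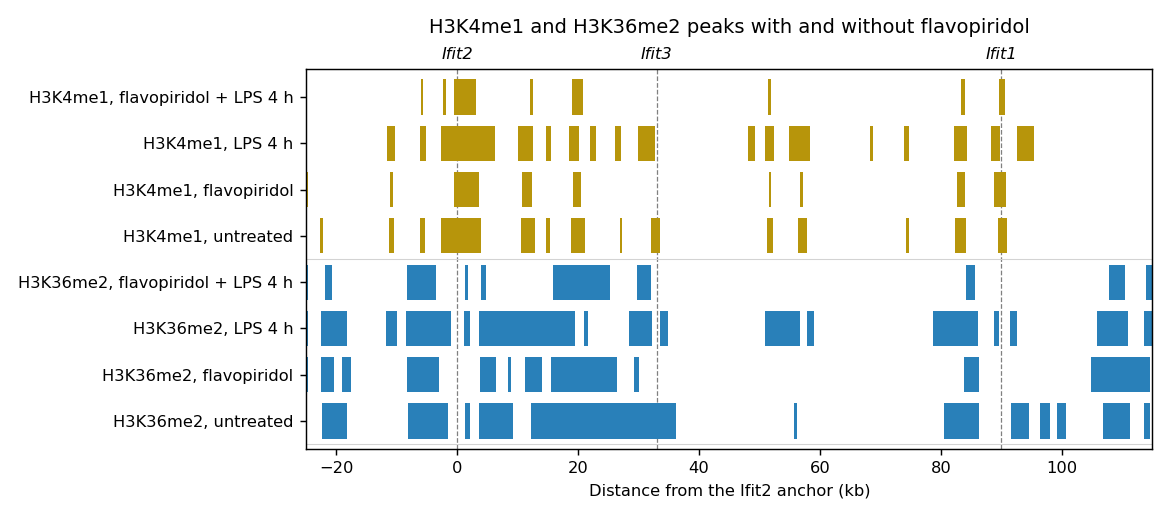
H3K4me1 and H3K36me2 peaks along the Ifit region after flavopiridol and LPS, with LPS 4 h alone, with flavopiridol alone and in untreated cells; the x axis is the distance from the Ifit2 anchor in kb, each block is a peak of 1 library and dashed lines are the anchors. No H3K4me1 block lies within 5 kb of the Ifit3 anchor with flavopiridol, and with LPS alone the nearest ends 0.4 kb before it. A block of H3K36me2 between the Ifit2 and Ifit3 anchors is present in both flavopiridol lists and mostly missing with LPS alone.

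H3K36me2 covered 24.6 kb after flavopiridol and LPS, against 59.2 kb with LPS alone, and 39.2 kb with flavopiridol alone, against 58.9 kb in untreated cells. With flavopiridol alone the region differed by -14.0 points, and 3.14% of tiles differed downward by 10 points or more and 7.02% upward. That list covered 11.5% of the genome, against 10.7% in untreated cells. No peak of these 2 lists in the region had a −log10 q of 5 or more. The difference between flavopiridol with LPS and LPS alone was -24.8 points, and 17.3% of tiles differed downward by 10 points or more. The whole list covered 8.72% of the genome after flavopiridol and LPS, against 13.2% with LPS alone, and the part of this in the region's difference was not tested. Among peaks whose −log10 q reached 5, which were 0 of 10 after flavopiridol and LPS and 1 of 16 with LPS alone, the difference was -0.661 points. Of 16 H3K36me2 peaks of LPS 4 h 6 had no counterpart after flavopiridol and LPS, against 33.8% of the whole list. One stretch went the other way. The H3K36me3 span of 5446 bp was covered by H3K36me2 to 82.3% after flavopiridol and LPS, against 11.9% with LPS alone, and to 100% with flavopiridol alone and in untreated cells. The span after the Ifit1 anchor was at 0% after flavopiridol and LPS, against 4.45% with LPS alone, and at 0% with flavopiridol alone, against 63.6% in untreated cells. H3K36me3 itself was not profiled with flavopiridol.

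PU.1 was mapped before stimulation and had 15 peaks in the region, where tiles of this width held 5.28 on average. Fold enrichment over background is the authors' value for each PU.1 peak and was 3.19 to 19.5 in the region, with a median of 6.17 against 6.11 for the whole list. The strongest summit, of 19.5, and one of 13.1 lay in the border domain at the left end, more than 20 kb from the Ifit2 anchor. One of 15.0 lay 18.6 kb after the Ifit3 anchor, and one of 11.4 lay at 34644779, inside the H3K4me3 peak gained at 4 h. A summit of 8.11 lay 96 bp from the Ifit2 anchor. The nearest PU.1 summit to the Ifit3 anchor was 5790 bp away, with a fold enrichment of 3.29, and the nearest to the Ifit1 anchor was 6839 bp away, with 7.05. Ifit2 was thus the only one of the 3 anchors with PU.1 within 5 kb. Because the anchors are approximate, these are not distances from start sites.

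Marks at the PU.1 summits were read in each condition. H3K27ac lay over 5 of the 15 summits before treatment, over 5 at 1 h and over 8 at 4 h, against 42.4%, 37.5% and 42.9% of 99565 summits in the genome. H3K4me1 lay over 10, 8 and 11 of them, against 65.8%, 63.4% and 66.4% in the genome. It lay over 6 after flavopiridol and LPS and over 7 after flavopiridol alone, against 52.9% and 61.2%. H3K4me3 lay over 4, 5 and 6 in the LPS series, against 21.4%, 21.3% and 22.6%. H3K36me3 lay over none in any of these 3 conditions, against 12.3%, 12.2% and 12.3%. H3K27me3 lay over 3, 3 and 2, against 9.79%, 9.47% and 10.8%. The summit 18.6 kb after the Ifit3 anchor had H3K4me1 in all 5 conditions, H3K27ac at 4 h alone and no H3K4me3.

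The deposited 27-state segmentations name a state for each 200 bp step, and each state was described by the marks that cover it over the whole genome. Of the 700 steps of the region, 353 had another state at 4 h than in untreated cells (50.4%), against 12.2% of all steps of the genome. At 1 h 25.9% of the region differed from untreated cells, against 11.0% of the genome. State 22, covered by H3K4me3 with H3K27ac over a minority of its length, took 400 bp of the region in untreated cells, 1000 bp at 1 h and 5400 bp at 4 h. State 23, covered by H3K4me3 and H3K27ac, took 800, 1000 and 5800 bp. State 24, covered by both and by H3K4me1, took 1200, 600 and 4400 bp. State 15, covered by H3K36me3, was absent before treatment and at 1 h and took 7000 bp at 4 h.

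Many of the steps that changed had been in states that, over the genome, have H3K36me2 or almost no mark. State 27, almost without marks over the genome, took 49400 bp in untreated cells, 36200 bp at 1 h and 34400 bp at 4 h. In this region it was not free of H3K27me3. At 4 h, for example, its segment chr19:34699601-34702800 lay inside the H3K27me3 peak chr19:34696302-34703954. State 26, covered by H3K36me2 over 64.5% of its genomic length in untreated cells, took 40800, 44800 and 34200 bp. Of its steps 6000 bp were in state 15 at 4 h and 3200 bp in state 22. Conversely 12600 bp of state 27 were in state 26 at 4 h. State 19, the H3K27me3 state, took 12400 bp in untreated cells, 17400 bp at 1 h and 8400 bp at 4 h. H3K27me3 peaks covered 26.9, 25.6 and 24.2 kb in the same order, so part of the mark lay outside state 19. State 10, the promoter state with H3K79me2 at the left border, took 2000 bp in each of the 3 segmentations.

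**Figure D5:**
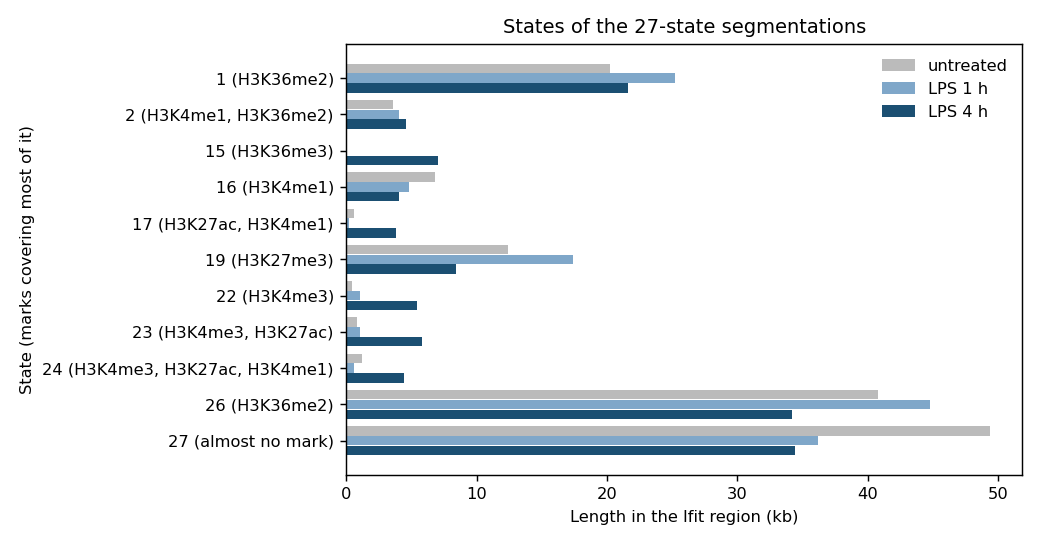
Length in kb of the Ifit region in 11 of the 27 states in untreated cells, at LPS 1 h and at LPS 4 h, with the marks that cover most of each state over the genome in parentheses. States 22, 23, 24 and 15, with H3K4me3 or H3K36me3, are longest at 4 h, and state 27, almost without marks over the genome, is longest in untreated cells.

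The tiles most like the Ifit region over the 21 lists of untreated and LPS-treated cells were chr15:25340001-25480000, chr8:3220001-3360000 and chr19:21160001-21300000. Their covered shares differed from it by 3.66, 3.67 and 3.81 points on average over the lists, where the median over 18840 tiles was 14.9. H3K36me2 at 4 h stood at 48.9%, 44.7% and 51.1% of the 3 tiles and at 42.3% of the Ifit region. H3K4me3 at 4 h stood at 2.98%, 4.38% and 2.86% of the tiles and at 15.3% of the Ifit region, so none of the 3 matched it in the promoter mark. The first of the 3 had a higher H3K27ac share at 4 h than in untreated cells, 16.7% against 8.67%, and no H3K36me3 in any list.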

How the data were processed

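The submitters' processing notes name Bowtie 1.0.1, MACS2 and mm9. For MACS2 the version, settings and control library, and also the read numbers and the segmentation tool, were not given in the sources used here. Deposited lists hold the peak intervals, the −log10 q of each peak and, for PU.1, a fold enrichment (a ratio) and a summit, all as the authors deposited them. Broad-peak intervals were used, and their deposited −log10 q only as a threshold in an alternative. The 4 deposited segmentations give a state label per interval. The 3 input samples were not analysed here.

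Overlapping peaks were merged, clipped to the region and summed, and the same was done over 18841 tiles of 140 kb. The tile grid was aligned to the Ifit region and to no other locus. Overlap means at least 1 bp. Peaks of chromosomes 1 to 19 and X were used, and duplicate PU.1 lines counted once. Interval arithmetic was tested on simulated data. The named genes are Ifit1, Ifit2 and Ifit3, with every peak and segment of the region and the 3 tiles with the smallest mean absolute difference. Members, lists and rules were chosen with earlier results of these data known. Promoters are from RefSeq (GRCm38.p6), and all 6 Ifit genes matched. Python 3.11.15, numpy 2.4.6, pandas 2.3.3 and matplotlib 3.10.9 were used. Alternatives were a −log10 q of at least 5, peaks of at least 1 kb, peaks merged within 1 kb, a narrower region, at least 50% of a peak covered, windows of 2 kb and segments of at least 400 bp.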

Additional observations from a re-analysis of the deposited data

Results flagged for a closer look

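With all deposited peaks, the difference between LPS at 4 h and no LPS in the Ifit region had opposite signs with and without flavopiridol. For H3K4me1 the covered share differed by -2.26 percentage points between flavopiridol with LPS and flavopiridol alone, and by 8.65 points between LPS and untreated cells. For H3K36me2 the same differences were -10.5 and 0.259 points. Cells with flavopiridol alone had 1 h of the drug, and the others had 4 h of LPS after that hour. LPS and the later time therefore cannot be told apart in the values with flavopiridol. These signs did not hold under every alternative. In the narrower region the H3K36me2 value without flavopiridol was -0.233 points, and among peaks whose −log10 q reached 5 the H3K4me1 value with flavopiridol was 0.0679 points and the H3K36me2 value 0. Each value comes from a pair of single libraries, and the difference between them was not tested.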

How the results depend on the processing

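Of 154 values recomputed under the alternatives, 124 stayed within their counting interval or within 1.5 times a count, 30 moved and 0 changed the sign of a difference of 10 points or more. The counting interval treats the 200 bp steps as independent, although neighbouring steps often lie in the same peak. It served only as a yardstick and measures no spread between libraries. Merging peaks within 1 kb gave exactly the main value every time. Its values are among the 124 and say nothing about how stable the results are. No paired analysis was possible because there is 1 library per mark and condition. In the narrower region the differences at 4 h were 15.4 points for H3K4me3 and 18.5 for H3K27ac against untreated cells, 14.6 and 19.2 against 1 h, -23.4 for H3K4me1 with flavopiridol and LPS against LPS, and -20.7 for H3K36me2 with flavopiridol alone. Among peaks whose −log10 q reached 5, H3K36me2 had 1 peak of 926 bp in the region at 4 h and none in its other lists, so its differences were -0.661 points with flavopiridol and LPS against LPS, 0 with flavopiridol alone, and 0 between both flavopiridol lists. H3K27me3 had no peak left. H3K4me1 then differed by -13.0 points with flavopiridol and LPS against LPS, and H3K79me2 by -1.50 points at 1 h. With windows of 2 kb to either side, the 4 h differences were 54.9 points for H3K4me3 and 76.8 for H3K27ac at Ifit3, and 90.4 for H3K27ac at Ifit1. With at least 50% of a peak covered, 11 peaks were gained and 11 lost at 1 h, in place of 5 and 6. Between 4 h and 1 h 31 were gained and 7 lost, in place of 17 and 4, and 12 were lost between 4 h and untreated cells, in place of 7. With flavopiridol alone 2 were gained, in place of 1. With flavopiridol and LPS 2 were gained and 25 lost against LPS, in place of 0 and 16, and 5 gained and 11 lost against flavopiridol alone, in place of 3 and 5. Among peaks whose −log10 q reached 5, 2 were lost at 4 h against untreated cells, 2 at 4 h against 1 h, 5 with flavopiridol alone, and with flavopiridol and LPS 1 was gained against LPS and 1 gained and 1 lost against flavopiridol alone. The cause was not tested. Depth is unknown and limits every absence of a peak.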
